A study of Caenorhabditis elegans with 4 samples.

Results

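The regions described here are the peaks of LIN-39 binding in the arms of chromosomes II, III and IV of Caenorhabditis elegans. They are all combined-list peaks on these 3 chromosomes whose midpoint lay in the first 25% or the last 25% of the chromosome's span, where the span ran to the largest coordinate found in any of the deposited lists. Of the 1874 peaks in the combined list, 228 met this rule (12.2%, Wilson 95% interval 10.8 to 13.7%, which covers counting error only). The other 328 peaks on II, III and IV lay in the centres of the same chromosomes. Position alone chose the peaks, so their scores, widths and recurrence were not used in the choice. The boundaries are fixed fractions of the span and not mapped chromosome domains.

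Binding was measured by ChIP-seq in L2 (second larval stage) hermaphrodites raised at 20 °C. All 4 samples, 2 LIN-39 ChIP replicates and 2 samples of input DNA, came from strain OP18. This strain is mutant for unc-119 (allele ed3, on chromosome III) and carries wgIs18, a transgene introduced by bombardment that holds unc-119(+) and lin-39 fused to TY1, EGFP and 3xFLAG. For all 4 samples the labels also give an outcross value of 3, 2% formaldehyde and 100 mM Tris. Chromatin of whole worms was precipitated with anti-GFP antibodies, so the peaks report the tagged protein over all cells together. The labels mention no lin-39 mutation, and they do not say whether the replicates were separate cultures. The authors' PeakSeq peaks were used, as 1 list for each ChIP replicate and 1 combined list. There was no second condition, so no test across samples was possible, and differences below are given with counting intervals and without p-values.

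LIN-39 is a homeodomain transcription factor of the Hox family that acts in the middle of the worm's body. It is needed for the vulval precursor cells to keep their fate and respond to inductive signals, and for the migration and identity of midbody neurons. The autosomes of C. elegans have gene-dense centres with many essential genes, flanked by arms that recombine more often, hold more repeats and in many cells carry repressive chromatin near the nuclear periphery. Peak coordinates are of genome build WormBase WS220. No genome sequence or annotation of that build was used, so the peaks are given by position, with no sequence and no gene.

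A few arm peaks on IV were among the strongest LIN-39 peaks in the genome. Most other arm peaks scored low, as did most peaks of the whole list. Each peak has a deposited q-value, the peak caller's p-value for enrichment over a control after adjustment for multiple testing. A smaller q is called stronger here, and it measures evidence and not the amount of binding. No q in any list exceeded 0.001, so all values of -log10 q lie above a common floor. The arm peaks ranged in q from 4.07e-30 to 0.000981, and the median of -log10 q was 3.71 (binomial 95% interval 3.55 to 4.005) at a median rank of 1125.5. Over all combined peaks the median was 3.96 (3.88 to 4.04). A q of at most 1e-5 was reached by 46 of the 228 (20.2%), where 23.9% of all combined peaks reached it. A q of at most 1e-10 was reached by 4 arm peaks (1.75%, 0.684 to 4.42%), where 4.11% of all combined peaks reached it. All 4 lay in the right arm of IV. The median width was 199 bp (170 to 240), with a range from 2 to 3118 bp. The arm peaks covered 61270 bp in all, or 0.263% of the arms.

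**Figure D1:**
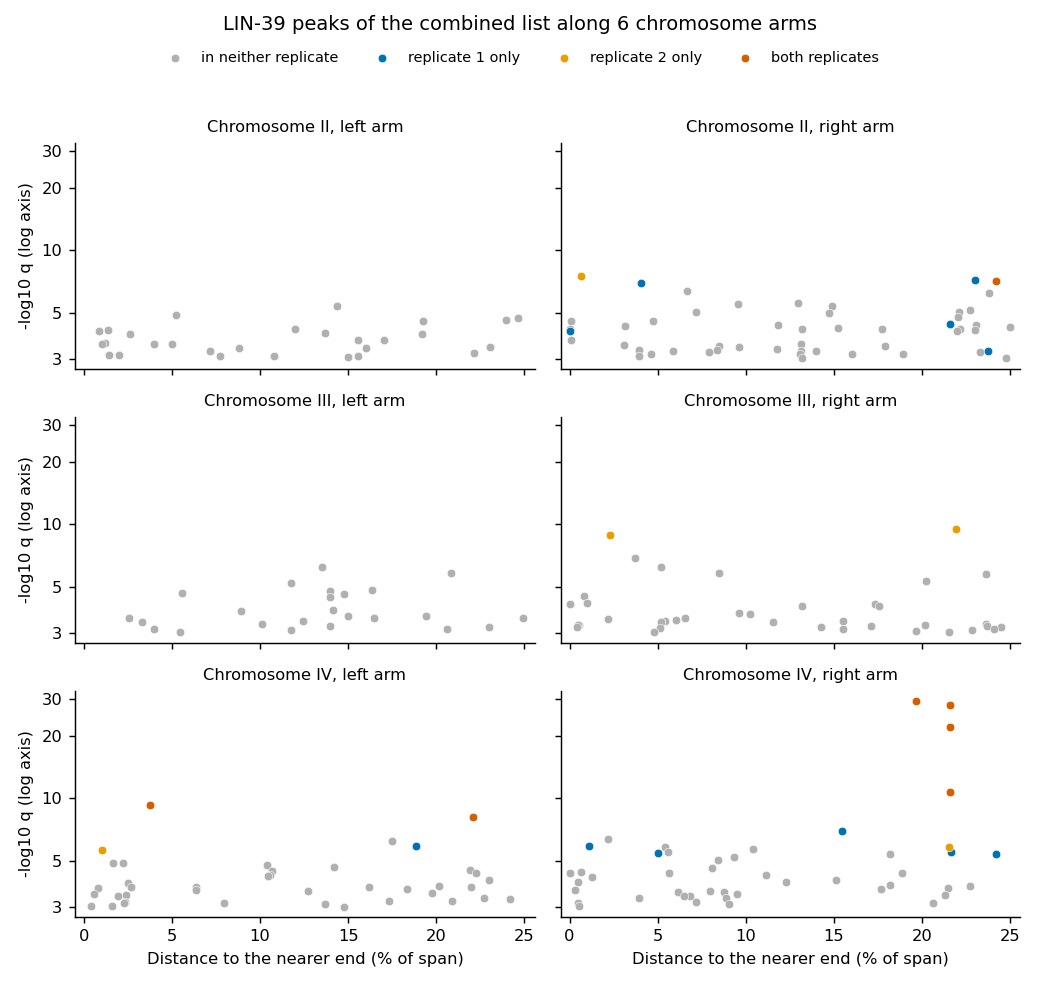
Each point is 1 of the 228 combined-list peaks, by its distance to the nearer chromosome end in percent of the span (x) and its -log10 q on a log axis (y), in 6 panels for the arms and coloured by the replicate lists that hold an overlapping peak. The right arm of IV holds all 4 points above 10, and the left arms of II and III hold grey points alone.

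The strongest arm peak was IV:14032486-14034462, which is 1977 bp wide. It had q = 4.07e-30 in the combined list (rank 7 of 1874), 2.39e-15 in replicate 1 (rank 11 of 239) and 3.53e-12 in replicate 2 (rank 2 of 83). Replicate 1 placed it at IV:14032496-14034406 and replicate 2 at IV:14032565-14034456, so that both replicate intervals lay within the combined one and covered 96.7% and 95.7% of it. It was an isolated peak, with 136191 bp to the nearest other combined peak.

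A run of 5 neighbouring peaks lay farther from the end of the same arm, from IV:13689370 to IV:13704428, over 15059 bp. The run was singled out after its values were seen. Its strongest member, IV:13695535-13696372 (838 bp), had q = 1.17e-28 in the combined list (rank 9), 4.92e-17 in replicate 1 (rank 5) and 1.73e-09 in replicate 2 (rank 11). The next, IV:13699260-13699897 (638 bp), had q = 1.30e-22, 5.19e-12 and 6.02e-11 in the same order of lists. Both were among the 20 strongest LIN-39 peaks of the whole genome. IV:13694644-13694924, which ended 610 bp before the first of these, had a combined q of 1.97e-11, with 3.42e-06 in replicate 1 and 3.54e-05 in replicate 2. The outer members were each listed in a single replicate. IV:13689370-13689754 had q = 3.05e-06 in the combined list and 0.000871 in replicate 1. IV:13703942-13704428 had q = 1.62e-06 in the combined list and 0.000346 in replicate 2. All 5 peaks of the run thus recurred in a replicate, 3 of them in both.

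The left arm of IV held 2 further peaks found in both replicates. The strongest peak of that arm, IV:654763-655088, had q = 4.93e-10 in the combined list (rank 90), 2.52e-06 in replicate 1 and 0.000206 in replicate 2, and its midpoint lay 654.9 kb from the left end. IV:3858005-3858448 had q = 7.57e-09 (rank 116), 2.67e-05 and 6.07e-05. On the other chromosomes a single arm peak was in both replicates, II:11567224-11567636 in the right arm of II, with a combined q of 7.99e-08, and of 0.000226 in replicate 1 and 0.000745 in replicate 2. It lay at 75.8% of the span.

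The strongest arm peaks of II and III were each listed in replicate 2 and not in replicate 1. On III they were III:10758978-10759350 (combined q = 3.42e-10, rank 87, replicate 2 q = 0.000277) and III:13464265-13465166 (combined q = 1.26e-09, rank 96, replicate 2 q = 0.000192). On II it was II:15165824-15166157 (combined q = 2.93e-08, rank 145, replicate 2 q = 4.03e-05). Each replicate list holds only peaks with q below 0.001. That a peak is missing from a replicate list does not show that binding was absent, and its q there is not given.

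A pair of peaks listed in replicate 1 alone followed on the right arm of II. II:11749180-11750197 (1018 bp) had q = 6.06e-08 in the combined list and 0.000166 in replicate 1. II:14645207-14645601 had q = 1.04e-07 and 1.98e-05. On IV, IV:14767716-14768027 had q = 1.18e-07 and 2.45e-05. All 13 strongest arm peaks were therefore in at least 1 replicate list.

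The remaining 7 of the 20 strongest arm peaks were in neither replicate, with combined q-values from 1.29e-07 to 6.41e-07. They lay on all 3 chromosomes. On II these were II:14251222-14251779 and II:11634925-11636125, on III III:13272809-13272838, III:13062225-13062793 and III:1859568-1859867, and on IV IV:17087536-17087617 and IV:3050348-3050915. The peak at III:13272809 was 30 bp wide and was the strongest of the 42 arm peaks under 50 bp. III:1859568-1859867 was the strongest peak of the left arm of III. The left arm of II had the weakest leading peak of the 6 arms, II:2191530-2191587 (58 bp, q = 3.81e-06, rank 355).

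Recurrence in the replicate lists was then counted over all arm peaks. Replicate 1 listed 239 peaks and replicate 2 listed 83, against 1874 in the combined list. The length of these lists limits how many combined peaks can recur, in arms and elsewhere. At least 1 bp of overlap with a replicate peak was found for 23 of the 228 (10.1%, 6.82 to 14.7%), where 12.4% of all combined peaks had such an overlap. Replicate 1 held 18 of them (7.89%, against 11.3% of all combined peaks) and replicate 2 held 12 (5.26%, against 4.32%). Both replicates held 7 (3.07%, against 3.15%). These shares were close to those of the whole list. Among the 23 recurring peaks the median of -log10 q was 6.98 and that of width was 395 bp, and 255 bp was the smallest width. The 205 others had medians of 3.61 and 177 bp. Of the 42 arm peaks under 50 bp (18.4%, where 16.7% of all combined peaks were that narrow), 0 were in a replicate (Wilson interval 0 to 8.38%). The lists come from the same series, so that these differences between recurring and other peaks are no independent evidence.

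**Figure D2:**
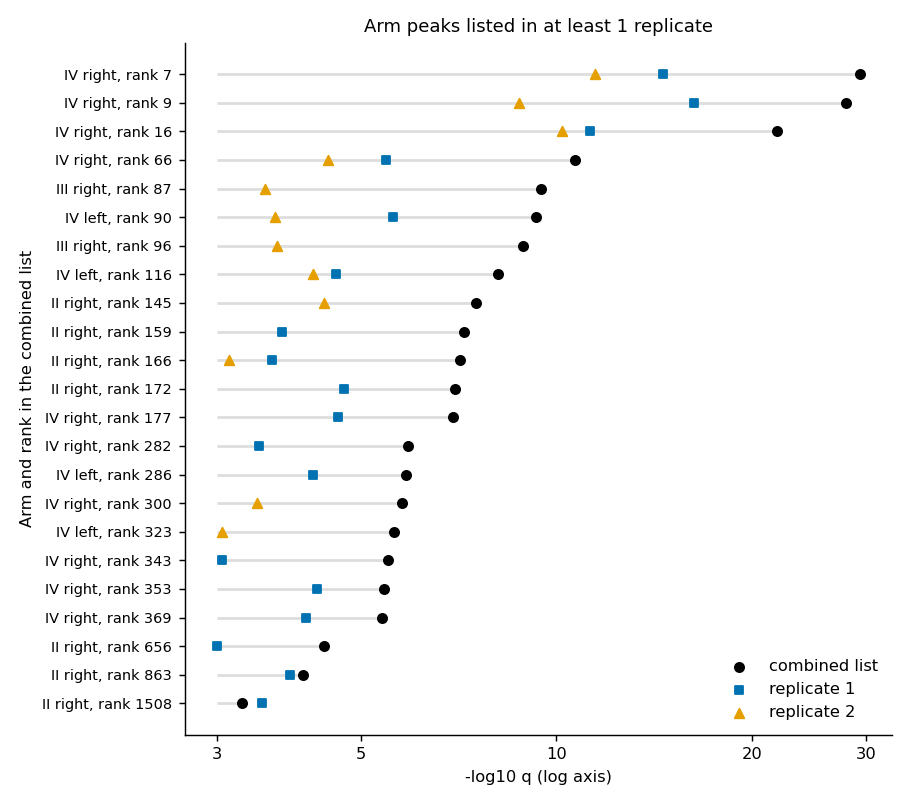
The 23 arm peaks listed in at least 1 replicate are ordered by their rank in the combined list (y), with -log10 q on a log axis (x) in the combined list (black circles), replicate 1 (blue squares) and replicate 2 (orange triangles). In 22 of the 23 the combined value exceeds that of each replicate that lists the peak, and in all 7 peaks found in both, replicate 1 exceeds replicate 2.

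Replicate peaks were narrower than their combined partners in nearly every case. Among the 18 shared with replicate 1 the replicate peak was narrower in 17, and it covered a median of 87.9% of the combined interval (61.2 to 100%). Among the 12 shared with replicate 2 it was narrower in 12 and covered a median of 91.7% (59.0 to 98.7%). The exception was the last peak on II, where replicate 1 placed II:15266921-15267544 (q = 0.000128) around the combined peak II:15267026-15267534 (q = 8.49e-05). The combined q was the smaller in 17 of 18 and 12 of 12 peaks. It was the larger for II:11637017-11637522, with q = 0.000526 in the combined list (rank 1508) and 0.000299 in replicate 1. For the 7 peaks in both replicates, the combined -log10 q was close to the sum of both replicate values, with a median ratio of 1.05 and a range from 0.924 to 1.13. The 14 centre peaks of II, III and IV found in both had a median ratio of 1.21 and ranged from 0.892 to 2.37.

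The replicate lists were also examined on their own. By the same rule, 20 of 68 replicate 1 peaks on II, III and IV lay in arms (29.4%, 19.9 to 41.1%) and 12 of 31 replicate 2 peaks (38.7%, 23.7 to 56.2%), where the combined list had 41.0% (37.0 to 45.1%). The intervals of these lists overlap, but the replicate 1 share lay below the combined interval. The lists share peaks and are not independent, so overlap of their intervals does not decide whether the shares differ. Of the 20 replicate 1 arm peaks, 7 had a partner in replicate 2 (35.0%), where 25.1% of all replicate 1 peaks had one. Of the 12 replicate 2 arm peaks, 7 had a partner in replicate 1 (58.3%, 32.0 to 80.7%), where 72.3% of all replicate 2 peaks had one. All 12 replicate 2 arm peaks were in the combined list, where 98.8% of all its peaks were. Of the 20 in replicate 1, 18 were in the combined list (90.0%, against 89.1% of all). The other 2 were II:1607297-1607333 (37 bp, q = 0.000304) and IV:2804214-2804349 (136 bp, q = 0.000525). The first was the only arm peak on the left of II in either replicate list.

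The arms were then compared with each other. The combined list held 28 peaks on the left arm of II, 51 on its right arm, 24 and 39 on the left and right arms of III, and 40 and 46 on those of IV. The right arms thus held 136 of the 228 (59.6%, 53.2 to 65.8%), and the right to left ratio was 1.82 on II, 1.62 on III and 1.15 on IV. On the other chromosomes, counted the same way, it was 1.18 on V, 1.08 on X and 0.641 on I. In density the arms ranged from 6.97 peaks per Mb on the left of III to 13.4 on the right of II.

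**Figure D3:**
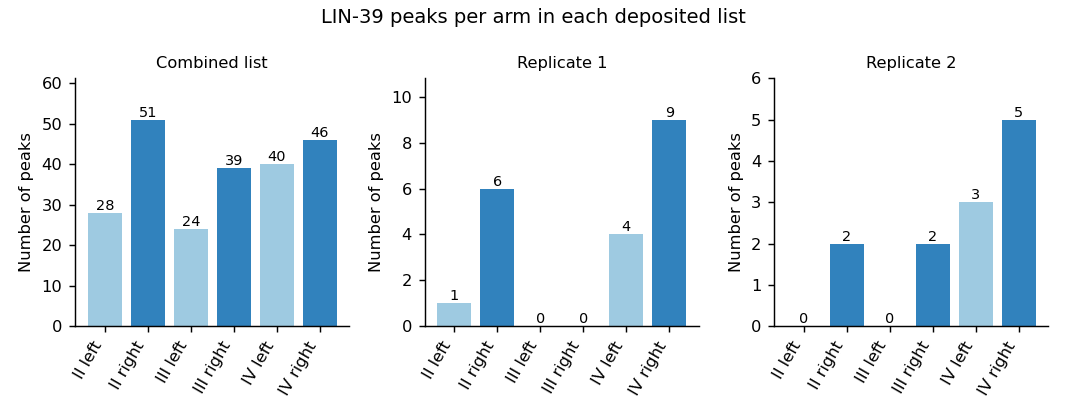
Bars give the number of peaks in each of the 6 arms (left arms in light blue, right arms in dark blue) in the combined list, replicate 1 and replicate 2, each on its own axis from 0. In every list each right arm holds as many peaks as the left arm of the same chromosome or more, with 51 against 28 on II in the combined list.

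Pooled over the 3 chromosomes, more right arm peaks than left arm peaks had a small q and recurred in a replicate. A q of at most 1e-5 was reached by 37 of 136 right arm peaks (27.2%) and by 9 of 92 left arm peaks (9.78%), a difference of 17.4 percentage points (Newcombe 95% interval 7.11 to 26.7). The median -log10 q was higher on the right on II (4.16 against 3.55) and IV (4.21 against 3.73) but lower on III (3.40 against 3.58). At least 1 replicate held 19 right arm peaks (14.0%) and 4 left arm peaks (4.35%), a difference of 9.62 points (1.67 to 16.9). In replicate 1 alone the difference was 7.77 points (0.515 to 14.5), in replicate 2 alone 3.36 points (-3.30 to 9.24) and for peaks in both 1.503 points (-4.30 to 6.40), where the intervals of the last 2 include 0. Without the run of 5 neighbours on IV the difference for at least 1 replicate was 6.34 points (-1.24 to 13.3), and its interval then included 0. All 4 recurring left arm peaks lay on IV, at IV:174146-174594 (replicate 2), IV:654763-655088 (both), IV:3294590-3294908 (replicate 1) and IV:3858005-3858448 (both). The left arms of II (28 peaks) and III (24 peaks) had 0 peaks in a replicate, which by the Wilson interval allows up to 12.1% and 13.8%. Neighbours within 2 kb were found for 22 right arm peaks (16.2%) and 3 left arm peaks (3.26%), a difference of 12.9 points (5.03 to 20.3). Peaks are not independent, and neighbours count separately in these intervals.

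By chromosome, the arms of IV stood above those of II and III in recurrence. Of 86 arm peaks on IV, 14 were in a replicate (16.3%, 9.95 to 25.5%), where 12.4% of all combined peaks were. On II it was 7 of 79 (8.86%, 4.36 to 17.2%) and on III 2 of 63 (3.17%, 0.875 to 10.9%). The intervals of IV and II include the share of the whole list, and that of III lies below it. IV exceeded II and III together by 9.94 points (1.71 to 19.6). Without the run of 5 neighbours the share on IV was 11.1% (5.96 to 19.8%). The difference was then 4.77 points (-2.60 to 13.9), and its interval included 0. On III, replicate 1 held 0 of the 63 arm peaks, while it held 10 of the 105 centre peaks (9.52%), a difference of -9.52 points (-16.6 to -2.37). Replicate 2 held 2 arm peaks of III (3.17%) and 8 centre peaks (7.62%), with a difference of -4.44 points (-11.5 to 4.09). The arm peaks of IV were the narrowest, with a median of 154 bp (114 to 199), against 243 bp (194 to 296) on II and 211 bp (161 to 316) on III. Those of III had the lowest median -log10 q, 3.50 (3.37 to 3.73), against 3.96 on II and 3.88 on IV.

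**Figure D4:**
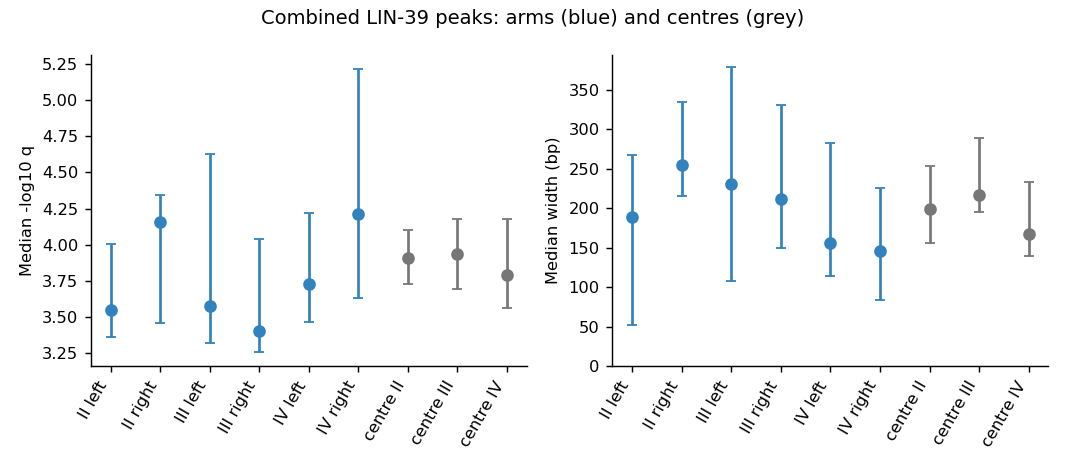
Points give the median -log10 q (left) and the median width in bp (right) of the combined peaks in each of the 6 arms (blue) and the 3 centres (grey), with binomial 95% intervals of the median. The medians of -log10 q run from 3.40 on the right arm of III to 4.21 on the right arm of IV, and the intervals of these arms overlap.

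Against the centres of the same chromosomes, the arms had fewer peaks per Mb. The arms held 9.80 peaks per Mb and the centres 14.1, a ratio of 0.695. The ratio of arm to centre was 0.693 on II, 0.600 on III and 0.789 on IV, below 1 on each. Covered bases came to 61270 in arms and 112181 in centres, where the latter include the 30794 bp interval on III, the widest peak of the list. The median width was 199 bp in both, and the share under 50 bp was 18.4% in arms and 19.5% in centres, a difference of -1.09 points (-7.54 to 5.70). The share with q of at most 1e-5 was 20.2% and 20.4%, a difference of -0.25 points (-6.89 to 6.70). The median -log10 q was 3.71 and 3.89, a difference of -0.18 (-0.414 to 0.136, from the binomial intervals of both medians), and this interval included 0. The difference in medians was -0.44 on III but 0.05 on II and 0.09 on IV, and without III it turned to 0.04. A replicate held 10.1% of arm peaks and 13.4% of centre peaks, a difference of -3.33 points (-8.58 to 2.31). With boundaries at 0.20 and 0.80 of the span this difference was -8.49 points. On II and III the arms had the lower share, and on IV they had the higher one, 16.3% against 12.8%, although each chromosome's interval included 0.

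Recurrence followed rank in the arms as it did in the centres. The combined and replicate lists come from the same series, so this trend is no independent evidence. All 7 arm peaks among ranks 1 to 100 were in a replicate, as were all 14 centre peaks there. For ranks 101 to 500 the counts were 13 of 43 in arms (30.2%, 18.6 to 45.1%) and 25 of 65 in centres (38.5%, 27.6 to 50.6%). For ranks 501 to 1000 they were 2 of 55 (3.64%) and 3 of 93 (3.23%). Of the last 874 ranks, 123 peaks lay in arms and 1 of them was in a replicate (0.813%), against 2 of 156 (1.28%) in centres. In every band the intervals of both zones overlapped. More of the arm peaks fell in that last band, 53.9% against 47.6% of the centre peaks.

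**Figure D5:**
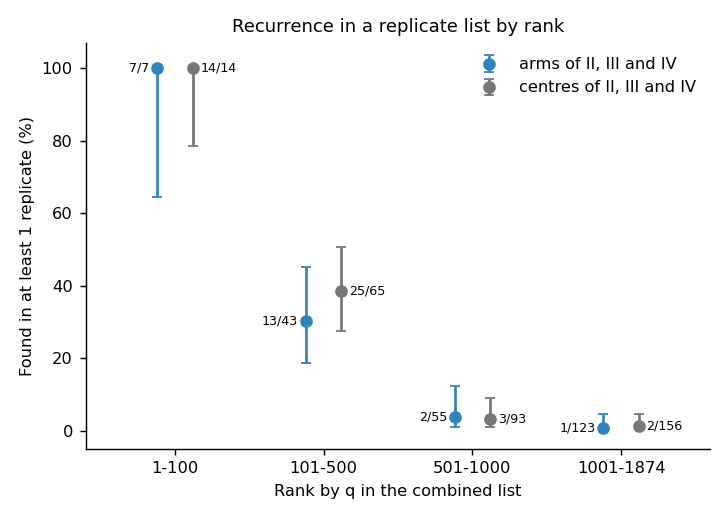
The share of peaks found in at least 1 replicate list (y, in %) is plotted by rank in the combined list (x) for arms (blue) and centres (grey) of II, III and IV, with Wilson 95% intervals and the counts beside each point. Both fall from 100% at ranks 1 to 100 to 0.813% and 1.28% at the last ranks.

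Within the arms, peaks were most numerous at both edges. Pooled over the 6 arms in steps of 5% of the span from the nearer end, there were 59, 42, 41, 34 and 52 peaks, or 12.7, 9.03, 8.81, 7.31 and 11.2 per Mb. The first step inside the centres held 56. The right arm of II held 12 in its outermost step and 15 in its innermost, more than in any step between. The left arm of III held 3 and 4 there, against 10 between 10% and 15%. The right arm of IV held 11 and 10, against 15 between 5% and 10%. In the left arm of II it was 9 and 4. Recurring peaks of the pooled arms lay mostly in the outermost and innermost steps. In the outermost step 8 of 59 were in a replicate (13.6%, 7.03 to 24.5%), close to the 12.4% of all combined peaks. In the innermost it was 12 of 52 (23.1%, 13.7 to 36.1%). Between 15% and 20% it was 3 of 34 (8.82%), and between 5% and 15% 0 of 83 (0 to 4.42%). The 83 join 2 steps, each with 0. The innermost step includes the run of 5 on IV, and its remaining recurring peaks lay on II, III and IV. The strongest peak of the 83 was II:14251222-14251779, at rank 228. Recurrence also followed rank, and whether it varied with position at equal rank was not tested.

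Because the spans end at the largest listed coordinate, a peak at the right end of each was given by the rule and is no finding. The last peak on II had its midpoint 0.264 kb from the end of the span, that on III 1.56 kb and that on IV 0.112 kb, with q-values of 8.49e-05, 7.13e-05 and 4.28e-05. These peaks themselves, or on II the replicate 1 peak over one of them, set the span, and the true chromosome ends are not given in the lists. The peak on III, III:13778109-13781226, was the widest of all arm peaks at 3118 bp and was in neither replicate. Of these 3 the peak on II was the one listed in replicate 1, and 0 were in replicate 2. At the left the first peaks were II:133778-134229, III:349506-350223 and IV:69790-69814, all weak (q from 8.50e-05 to 0.00092) and in neither replicate.

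Close neighbours were less frequent in the arms than in the whole list. Another combined peak lay within 2 kb of 25 arm peaks (10.96%), where 21.7% of all combined peaks had one. In the centres of II, III and IV 13.4% had one, and the difference of -2.45 points had an interval that included 0 (-7.80 to 3.29). In the regions cut by the same rule on V, X and I, the share was 6.90%, 6.67% and 37.6%. When neighbours within 2 kb were merged, 214 regions were left of the 228 peaks, and 11 of them held more than 1 peak. The region with most peaks, II:13255267-13258164, held 4 peaks over 2898 bp, the strongest with q = 6.45e-05. Next came III:1920951-1925623, with 3 peaks over 4673 bp (q = 1.81e-05 at best). Neither was in a replicate. Among the 9 pairs, the strongest was IV:13694644-13696372 of the run described above, and both its peaks were in both replicates. The median distance from an arm peak to its nearest neighbour was 27.8 kb, against 17.7 kb in the centres.

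Arm peaks of II, III and IV were also set beside the regions cut by the same rule on the other chromosomes. The arms of V held 87 peaks at 8.33 per Mb, against 9.80 per Mb here, and 12 of them were in a replicate (13.8%, 8.07 to 22.6%). Peaks under 50 bp were more frequent in the arms of V, at 31.0% against 18.4%, a difference of -12.6 points for II, III and IV minus V (-23.9 to -2.26). The same regions held 17.0 peaks per Mb on X and 56.1 on I, which were 1.73 and 5.72 times the density on II, III and IV. Their recurrence shares were 20.7% (14.96 to 27.8%) on X and 6.67% (4.65 to 9.47%) on I.

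Peaks next to the boundaries had ranks from 369 to 1588 inside and from 723 to 1437 outside. The last peaks inside were II:3758350-3758478, II:11452973-11453265, III:3437195-3437572, III:10407226-10407459, IV:4230394-4230400 and IV:13240486-13240814. The first outside were II:3834453-3836003, II:11414230-11414414, III:3555237-3555335, III:10170385-10170416, IV:4396293-4396491 and IV:13028376-13028651. Their q-values ran from 4.14e-06 to 0.000614 inside and from 5.31e-05 to 0.000475 outside. The peak at IV:13240486 was the one among the 12 that a replicate listed, with q = 7.75e-05 in replicate 1.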

How the data were processed

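The analysis started from the peak lists of LIN-39 ChIP replicates 1 and 2 and from a combined list. Input DNA entered it through no list of its own. Per the file headers, the deposited peaks are on WormBase WS220, and per the source column they were called with PeakSeq. The deposited p-value column was read as q-values, because in order of peak number the values fell at 886 of 1873 steps of the combined list, but multiplied by that number at 0. Of the aligner, version, threshold, control and any pooling of reads, nothing is given in the sources used here. The lists give no read counts, so depth is unknown, and with it how precise a position or a score is.

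Midpoints below 0.25 or at least 0.75 of the span defined arms. Overlap needed at least 1 bp. Peaks were ranked by q. Intervals are 95% intervals (Wilson for shares, Newcombe for differences, binomial order statistics for medians). Overlap and joining were tested on simulated lists. The peaks, rules and alternatives were chosen with earlier results of these data known. Named regions were the 20 strongest arm peaks, those in both replicates, the strongest of each arm, the 3 widest, those nearest each end and boundary, the 3 regions with most peaks, and replicate peaks with no combined partner. Others were named after their values were seen. The software was scipy 1.17.1, pandas 2.3.3 and numpy 2.4.6 under Python 3.11.15, with matplotlib 3.10.9 for figures.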

Additional observations from a re-analysis of the deposited data

How the results depend on the processing

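Of 73 values recomputed under an alternative, 10 left the interval of the reported value (for the number of peaks, 1.5 times), 2 changed sign within it and the other 61 did neither. The 61 include values that could hardly change. Spans from the combined list alone differed only on II (15267534 against 15267544 bp) and returned every reported value unchanged. Boundaries at 0.20 and 0.80 gave an arm share of 31.7% and a recurrence share of 6.25%. These leave out the innermost step, with 12 of its 52 peaks in a replicate. Without the run on IV alone the share was 8.07%. Boundaries at 33.3% and 66.7% of the span gave an arm share of 57.2%. A q of at most 1e-4 left 99 arm peaks with a median -log10 q of 4.82, a median width of 324 bp and a recurrence share of 22.2%, and the difference in median -log10 q between arms and centres turned to 0.0621. Leaving out peaks under 50 bp gave a median width of 251 bp. Leaving out single chromosomes or the run, both chosen after the data were seen, turned that difference to 0.0422 without III and gave a recurrence share of 6.34% without IV. Without 1 replicate, the recurrence share was 5.26% (replicate 1 left out) to 7.89% (replicate 2 left out). Its difference from the centres was then -0.53 and -4.00 points, in that order. Boundaries at 0.20 and 0.80 moved this difference to -8.49 points, leaving out IV to -7.36 and leaving out the run to -5.34. It was negative in all 13 alternatives, which are given without intervals. No paired analysis was possible because the input DNA has no list here and no result comes from a test across samples. Depth limits cannot be set without read counts.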
